A study of Mus musculus with 30 samples.

Results

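A common set of genes fell when doxycycline (Dox) was withdrawn from 4 mouse embryonic stem cell (ESC) rescue clones, Bub1b_R, Chek1_R, Ppm1g_R and Ppp2r1b_R, and these genes are described here. They were chosen by their measured values: a probe was taken when its mean log2 signal without Dox lay at least 0.4 (1.32-fold) below its mean with Dox in each of the 4 clones. The choice gave 132 probes for 124 genes, out of 15151 probes (11177 genes) detected on 3 or more of the 30 arrays and 25697 probes on the array. The falls in these 4 clones are therefore a description and were not tested, while the control clone, Control_R, took no part in the choice.

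All clones came from Ainv15, an ESC line that carries the reverse tetracycline transactivator, the protein through which Dox switches on a transgene. In each named clone an shRNA targets the mRNA of Bub1b, Chek1, Ppm1g or Ppp2r1b, and Dox at 1 μg/ml turns on a copy that the shRNA does not recognize. Bub1b and Chek1 are mitotic and DNA damage checkpoint kinases, Ppm1g is a metal-dependent phosphatase, and Ppp2r1b is a scaffold subunit of PP2A. RNA was taken with Dox and after 5 days without it, in LIF medium and without the embryonic fibroblast feeders on which the lines were otherwise kept, on 3 Illumina arrays per condition; Control_R was sampled with and without Dox in the same way, and what its shRNA targets is not given in the sources used here. The Control_R arrays were deposited earlier than those of the other clones, as their record numbers show. The paper made 3 independent clones per rescue gene, and the labels do not say which of them the arrays used. Each line on the arrays is taken here as 1 clone. The labels also do not say whether the 3 arrays came from separate cultures. The p-values therefore measure the spread between arrays, which may be technical.

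ESCs keep their identity through a network of transcription factors that LIF signalling holds in place, and they differentiate when that network is disturbed. The primitive streak, from which mesoderm arises, is among the fates they can take. They also transcribe many genes known from differentiated tissues or germ cells, at low levels. A bulk measurement sums such transcripts over all cells, so fewer cells that express a gene and less RNA per cell cannot be told apart here.

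The arrays detected between 11733 and 13685 probes each, and replicate arrays correlated across probes with r from 0.991 to 0.997. They formed 2 sets by signal, since the dimmest detected probe read 12.9 to 20.9 in Bub1b_R and Control_R and 27.8 to 58.1 in the rest, so that levels of Chek1_R, Ppm1g_R or Ppp2r1b_R against Control_R cross the sets while each comparison with and without Dox stays within one. Of the targeted mRNAs, Ppm1g fell by 1.29 on the log2 scale (limma adjusted p = 7.41e-09), Bub1b changed by -0.14 (adjusted p = 0.19) and Ppp2r1b by 0.24 (adjusted p = 0.38). Chek1 went against its label. It was undetected and at the floor on the 3 arrays with Dox. Without Dox it was detected on all 3, at a mean level of 5.58, near that floor. In the paper the rescue copies of Bub1b and Chek1 lack the shRNA target, which lies in the 3' untranslated region. Where the array probes lie is not given, so whether they read these copies is not known. The name Chek1_R below means the arrays labelled Chek1_R. Of 8 ESC markers, 7 passed the detection filter and none of these was at the floor on all 3 arrays of any condition.

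On the log2 scale used throughout, signals under 32 were set to 32, which puts the floor at 5. A probe was called lower or higher at a limma adjusted p under 0.05 over all 15151 tested probes together with a change of at least 0.4. By this rule 6.56% of all tested probes were called lower in Bub1b_R, 8.64% in Chek1_R, 5.51% in Ppm1g_R, 5.86% in Ppp2r1b_R and 1.61% in Control_R. The median fall of the 132 probes was -0.77 in Bub1b_R, -0.92 in Chek1_R, -0.65 in Ppm1g_R and -0.62 in Ppp2r1b_R, beside 0 for all tested probes in each clone. The falls reached -2.19 in Chek1_R, -1.72 in Ppm1g_R, -1.46 in Bub1b_R and -1.45 in Ppp2r1b_R. Chek1_R held the largest fall for 63 of the probes and Ppp2r1b_R the smallest for 62. In 110 of the 132 probes every array without Dox lay below every array with Dox of the same clone, in each of the 4 clones, and 23 probes kept the 12 arrays with Dox above the 12 arrays without it when the clones were pooled. Of these probes, 99 were detected on all 30 arrays.

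**Figure D1:**
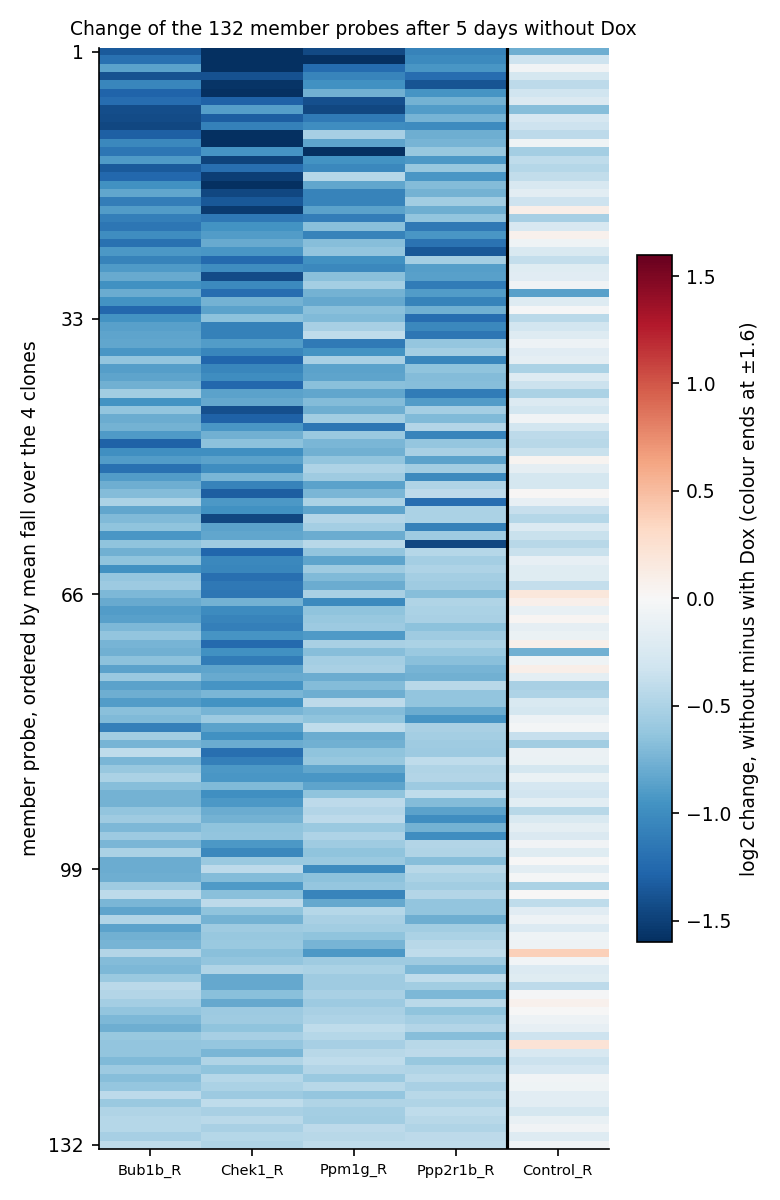
Log2 change (without minus with Dox, colour) of each of the 132 member probes (rows, ordered by mean fall over the 4 named clones) in the 5 clones (columns). The first 4 columns chose the rows and are blue throughout; the Control_R column is paler for most rows, with a median of -0.21 and a range from -0.88 to 0.38.

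The probes at the edge of the choice differed little from those just past it. Usp28, a deubiquitinase, was the nearest inside, with changes of -0.60, -0.82, -0.57 and -0.40 in Bub1b_R, Chek1_R, Ppm1g_R and Ppp2r1b_R. Rfx2, Pla2g4f and Cpn1 also entered with a smallest fall between -0.401 and -0.404. Just outside stood Ap3b2, Aplp1, a second probe of Tekt1 and BC028528, whose smallest falls were between -0.398 and the limit of -0.4.

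Among the genes that fell most were 2 of the vesicle docking and exocytosis machinery. Rab3il1, an exchange factor for the Rab3 family of vesicle GTPases, had a mean change of -1.46, a value limited by the floor and therefore not ranked. With Dox its log2 levels were 6.41, 6.24 and 6.39 in Bub1b_R, 7.14, 6.90 and 6.95 in Chek1_R, 6.39, 6.43 and 6.52 in Ppm1g_R and 5.75, 6.00 and 6.47 in Ppp2r1b_R. Without Dox 11 of the 12 arrays were at the floor of 5 and the twelfth, of Ppm1g_R, read 5.02. Rab3il1 was not above background on any array without Dox in Chek1_R, Ppm1g_R or Ppp2r1b_R, so that only a bound holds there: it was at least 3.74-fold lower in Chek1_R, at least 2.36-fold in Ppm1g_R and at least 2.02-fold in Ppp2r1b_R. In Bub1b_R it was above background on 2 arrays without Dox but at the floor on all 3. Only a bound holds there too, at least 2.54-fold lower. In Control_R it stood higher than in any of the other clones, at 8.62, 8.71 and 8.63 with Dox and 7.82, 7.93 and 7.87 without.

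Cplx1, a complexin that clamps and releases the SNARE fusion complex, had a mean change of -1.44. Its 12 arrays with Dox ran from 5.97 through a median of 7.46 to 8.13, and those without Dox from 5.00 through 5.71 to 6.96, so the pooled groups overlapped although each clone's own arrays did not. In Ppp2r1b_R it went from 5.97, 6.01 and 6.10 to the floor on all 3 arrays, undetected, at least 1.96-fold lower. In Control_R the arrays read 8.53, 8.83 and 8.77 with Dox and 8.28, 8.32 and 8.52 without.

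Of the 23 genes on the vesicle list, 16 were tested, and Rab3il1 and Cplx1 are its 2 members. Counting these 2, 4 genes of the list were called lower in Bub1b_R, 4 in Chek1_R, 3 in Ppm1g_R, 4 in Ppp2r1b_R and 1 in Control_R, and 1 was called higher in Chek1_R. Apart from the members, Rab3d, a GTPase of secretory granules, changed by -0.49, -0.71, -0.61 and -0.12 in Bub1b_R, Chek1_R, Ppm1g_R and Ppp2r1b_R. Rab3a, its synaptic relative, changed by -0.68, -0.19, -0.32 and -0.56. The median change of the list lay between -0.14 and -0.10 in the 4 clones, beside 0 for all tested probes.

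**Figure D2:**
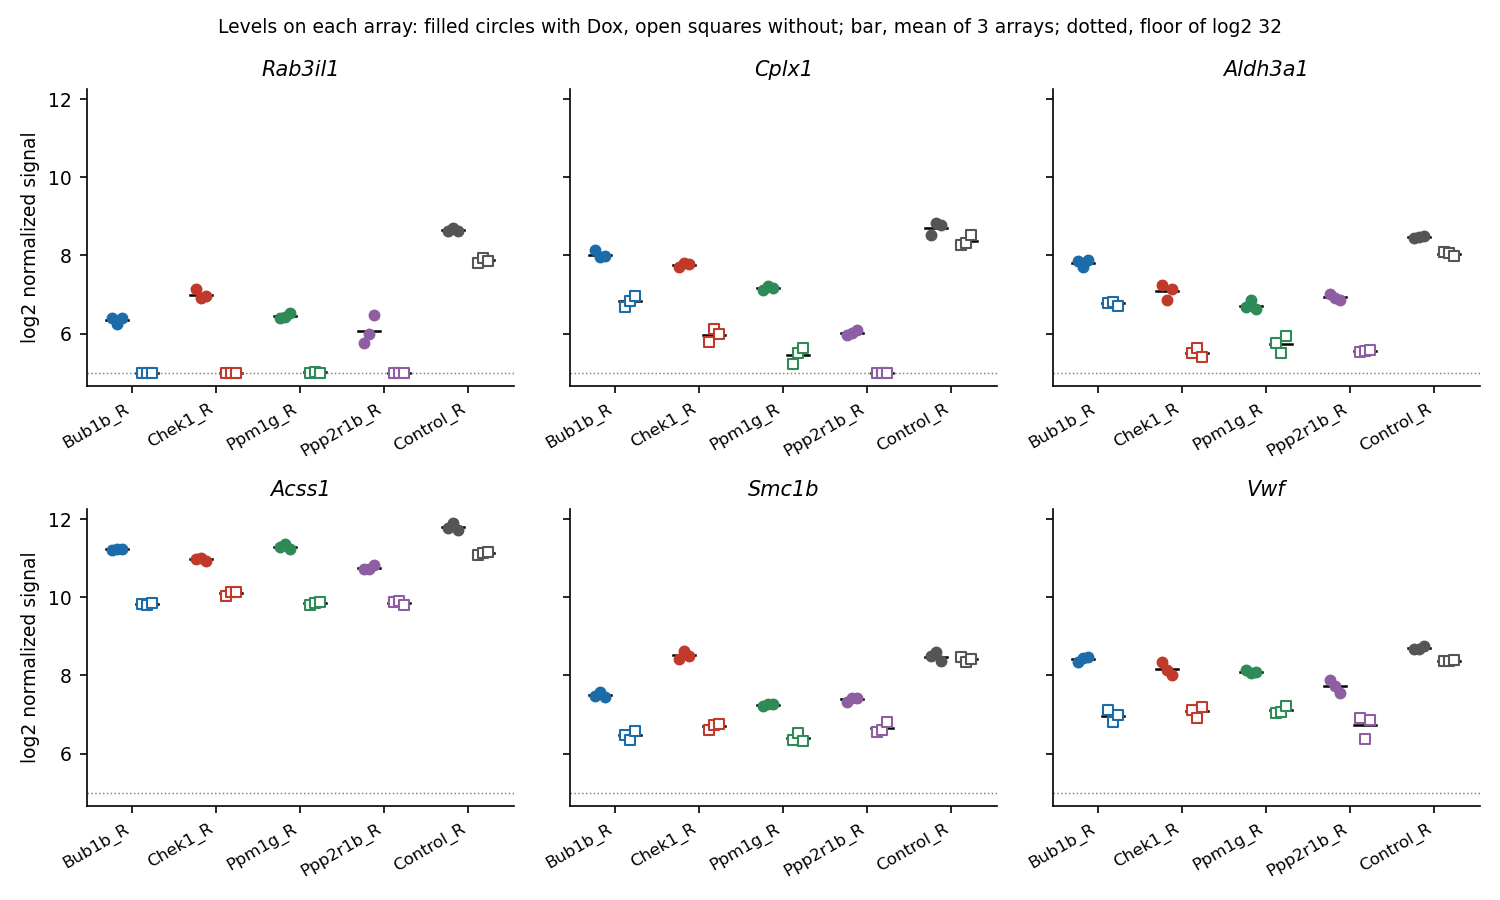
Log2 normalized signal on each array for 6 of the genes that fell most, with Dox (filled circles) and without (open squares), bars at the mean of 3 arrays and the floor dotted. Rab3il1 reaches the floor without Dox in the 4 named clones, Acss1 stays between 9.80 and 11.92, and the Control_R arrays without Dox lie above the arrays without Dox of every other clone for all 6 genes.

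Several enzymes that detoxify aldehydes, carbonyls and electrophiles were among the members. Aldh3a1, which oxidises medium-chain aldehydes, had a mean change of -1.24, from a median of 6.97 on the 12 arrays with Dox (6.62 to 7.89) to 5.61 without (5.39 to 6.82). The member probe of its relative Aldh3b1 changed by -0.88 to -1.04 in the 4 clones, and another probe of that gene by -0.70, -0.94, -0.30 and -0.88 in Bub1b_R, Chek1_R, Ppm1g_R and Ppp2r1b_R. The remaining Aldh3b1 probe had a mean level of 5.02, next to the floor. Gstp2, a glutathione S-transferase, read 11.14, 11.18 and 11.28 with Dox in Bub1b_R and 9.99, 10.05 and 9.99 without. In Ppp2r1b_R Gstp2 went from 10.23, 10.37 and 10.27 to 9.10, 9.15 and 9.07. With Cbr3 (a carbonyl reductase), Gstt1, Gstm6, As3mt (an arsenic methyltransferase) and Hsd17b14 (a steroid dehydrogenase) these make 8 genes, whose median changes were -0.75, -0.89, -0.75 and -0.94 in Bub1b_R, Chek1_R, Ppm1g_R and Ppp2r1b_R and -0.22 in Control_R. This grouping by role, like those that follow, was made after the values were seen. Each grouping holds members only, so the choice itself makes its medians in the 4 clones low. For these groupings the tested genes of the same role that were not members were not counted. Whether such a role fell as a class was therefore not tested.

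Acss1, the mitochondrial enzyme that turns acetate into acetyl-CoA and feeds the mitochondrial pool of it, had a mean change of -1.16. Its levels with Dox were 11.22, 11.25 and 11.25 in Bub1b_R, 10.99, 11.02 and 10.94 in Chek1_R, 11.30, 11.36 and 11.25 in Ppm1g_R and 10.72, 10.72 and 10.84 in Ppp2r1b_R. Without Dox the 12 arrays lay between 9.80 and 10.15, so that the pooled groups did not overlap. Aass, which starts lysine breakdown, differed far more between clones than between conditions: with Dox its arrays read 5.80, 6.09 and 6.03 in Bub1b_R but 9.65, 9.37 and 9.57 in Ppm1g_R.

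The list of acetate, threonine, glycine and 1-carbon enzymes had 16 tested genes, of which Acss1 and Aass are members. It gave 3 genes called lower in Bub1b_R, 3 in Chek1_R, 5 in Ppm1g_R, 6 in Ppp2r1b_R and 2 in Control_R, members included. Tdh, threonine dehydrogenase, was called lower in Ppp2r1b_R at -0.59 and higher in Chek1_R at 0.72. The median change of the list was -0.09 in Bub1b_R, -0.21 in Chek1_R, -0.17 in Ppm1g_R and -0.30 in Ppp2r1b_R. Other metabolic members were Pipox (pipecolate oxidase), Gch1 (the first enzyme of tetrahydrobiopterin synthesis), Hk1 (a hexokinase), Gfpt2 (hexosamine synthesis), Mocos (molybdenum cofactor sulfurase) and Uck2 (uridine-cytidine kinase).

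Lipid handling gave 10 members: the sterol exporter Abcg1, apolipoprotein Apoa2, the sterol esterifying enzyme Soat2, the acyl-CoA synthetase Acsbg2, the lipid carrier Stard5, the phospholipases Pla2g10 and Pla2g4f, the lipase Liph, the lipoxygenase Alox12 and the fatty acid hydroxylase Cyp4f39. Their median changes were -0.74, -1.23, -0.74 and -0.56 in Bub1b_R, Chek1_R, Ppm1g_R and Ppp2r1b_R, low by the choice, and -0.22 in Control_R. The tested genes of lipid handling were not counted. Apoa2 read 5.73 to 6.67 on the 12 arrays with Dox and 5.00 to 5.47 without, and 7.92, 7.81 and 7.93 in Control_R with Dox. Liph read 10.06, 10.04 and 10.27 in Bub1b_R with Dox and 9.45, 9.35 and 9.5 without, and its fall ranged from -0.41 in Ppp2r1b_R to -1.32 in Chek1_R.

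Among the members were genes known from germ cells and oocytes, of which 7 are named here and 4930424G05Rik (Patl2) with the calls in Control_R. Smc1b, the meiotic form of a cohesin subunit, had 12 arrays with Dox between 7.23 and 8.64 and 12 without between 6.32 and 6.80, with no overlap. In Control_R it read 8.49, 8.60 and 8.36 with Dox and 8.47, 8.35 and 8.43 without, so that those groups overlapped. Piwil2, which binds piRNAs, changed by -0.55, -0.97, -0.80 and -0.55 in Bub1b_R, Chek1_R, Ppm1g_R and Ppp2r1b_R. The others were Tex14 (a protein of germ cell bridges), the oocyte gene Nlrp14, Mtl5 (Tesmin), 2410004A20Rik (Khdc3, part of a maternal complex in oocytes) and 4921530G04Rik (Tex19.2).

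The fixed germline and meiosis list held 27 genes, 18 of them tested, with Smc1b and Piwil2 as its members. In all, 7 of the 18 were called lower in Bub1b_R, 8 in Chek1_R, 3 in Ppm1g_R, 7 in Ppp2r1b_R and 0 in Control_R, where 2 were lower and 2 higher by limma at an unadjusted p under 0.05, while 2 were called higher in Bub1b_R and 1 in Ppm1g_R. Dazl, an RNA-binding protein of germ cells, missed membership through Chek1_R alone, with changes of -0.76, -0.28, -0.44 and -0.86. Mov10l1, a helicase of the piRNA pathway, missed it through Ppm1g_R, at -0.23 there and -0.75, -1.14 and -0.84 in Bub1b_R, Chek1_R and Ppp2r1b_R. Nanos3 moved the other way, at 0.51 in Bub1b_R and 0.98 in Ppm1g_R.

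Genes of motile cilia were also present: Dnaic1 (a dynein intermediate chain), Rsph1 (a radial spoke protein), Tekt1 (a tektin), Ttc29 and Rfx2, a transcription factor of ciliary genes. Dnaic1 had 2 member probes that agreed in direction. The brighter changed by -1.31 in Bub1b_R, -1.85 in Chek1_R, -0.54 in Ppm1g_R and -0.79 in Ppp2r1b_R, and the dimmer by -1.28, -1.78, -0.76 and -0.94. In Bub1b_R the brighter probe read 7.99, 7.99 and 8.05 with Dox and 6.84, 6.73 and 6.53 without, and in Control_R 10.00, 9.95 and 10.08 against 9.48, 9.63 and 9.66.

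Genes known from lymphocytes and innate immunity gave 8 members: the adhesion receptors Cd2 and Cd6, the T cell kinase Zap70, the lipid-presenting Cd1d1, the integrin chain Itgae, the DNA sensor Aim2, the metal transporter Slc11a1 and the defensin Defb20. Defb20 had the largest mean change of these, -1.15. Muscle gave Tnnt1 and Mb (troponin T and myoglobin), Alpk3, Mef2b and Rpl3l. Ckmt1, a mitochondrial creatine kinase that is not particular to muscle, was also a member. Vwf, von Willebrand factor of endothelium and platelets, had 12 arrays with Dox from 7.56 to 8.48 and 12 without from 6.38 to 7.21. The stress-responsive Gdf15, Fdxr, Trp53i11, Nupr1 and Usp28 fell too, with Gdf15, a secreted factor, at a mean of -1.03 and Fdxr, a mitochondrial reductase and known p53 target, at -0.43, the smallest mean fall of all members. These stress genes were picked from the falling members, and no list of stress or p53 target genes was counted. In the paper's gene set analysis, p53 targets rose as a set when the same genes were depleted.

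Proteases gave 5 members, again without a count of the tested proteases. The proteases were Tmprss13 (a membrane serine protease, with a mean of -1.17), the pancreatic elastases Ela1 and Ela2a, the carboxypeptidase subunit Cpn1 and Capn5, with median changes of -0.85, -0.96, -0.52 and -0.76 in Bub1b_R, Chek1_R, Ppm1g_R and Ppp2r1b_R and -0.21 in Control_R.

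How evenly a gene fell varied. The range between the 4 clones had a median of 0.50 over the probes and ran from 0.08 for Fdxr to 1.33 for LOC100045403, which fell by 2.19 in Chek1_R and by 0.86 in Bub1b_R. The brighter Dnaic1 probe (1.31), Smc1b (1.09), BC052484 (1.06) and 4921530G04Rik (1.01) followed among genes. Smc1b, Dnaic1 and BC052484 fell most in Chek1_R, while 4921530G04Rik fell by 1.45 in Ppp2r1b_R and by 0.45 in Ppm1g_R. Without Dox in Ppp2r1b_R, 4921530G04Rik read 5, 5 and 5.42, so that fall is limited by the floor. BC052484 also reached the floor without Dox, on arrays of Bub1b_R and Ppp2r1b_R. Among genes of less known function, 4930432K21Rik had a mean change of -1.06. Itgae, with a range of 0.12 and 0.13 for its 2 probes, and Gmfg, with 0.09, were among the most even.

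Genes with several probes did not always speak with one voice. In 8 genes 2 probes each met the choice (Dnaic1, Pipox, Plxdc1, Cbr3, Mef2b, Zap70, Tspan17 and Itgae). In 31 genes another 39 tested probes did not, of which 23 were lower in all 4 clones, 15 reached the limit in 3 clones and 15 in none. Slc11a1 was one case: its member probe, at 6.70 to 7.32 with Dox, had a mean change of -0.85, but another probe, with a mean level of 11.37 over the 30 arrays, changed by a mean of -0.12. For Uck2 the brighter probes changed by -0.30 and -0.39, against -0.47 for the member probe. Apart from the bright probes of Slc11a1 and Uck2, those that reached the limit in no clone had mean levels of 5 to 5.9. These levels are at or near the floor, where little or no fall can be read. A second Rab3il1 probe stood near the floor in the 4 clones, with a mean change of -0.10, and changed by -1.09 in Control_R.

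Beside these falls, several markers of other cell types were called higher and a few lower, and their part in the falls was not tested. Of 12 primitive streak and mesoderm markers 11 were tested, and 10 were called higher in Bub1b_R, 10 in Chek1_R, 9 in Ppm1g_R, 5 in Ppp2r1b_R and 2 in Control_R, where Cdx1 was called lower. Their summed normalized signal (linear scale) went from 2291 to 2384 with Dox to 8789 to 9025 without in Bub1b_R, from 661 to 681 up to 6685 to 7251 in Chek1_R, from 2486 to 2622 up to 4952 to 5179 in Ppm1g_R and from 1339 to 1390 up to 3551 to 3980 in Ppp2r1b_R. In Control_R it was 533 to 577 and then 586 to 632, and Cdx2, Eomes, Mesp1, Mixl1 and Wnt3 were at the floor on all 6 arrays. In Ppp2r1b_R without Dox, Mixl1, Mesp1 and Wnt3a were at the floor. Of 6 tested trophoblast markers 4 were called higher in each of the 4 clones and 1 in Control_R. Cdx2 and Eomes are also on the primitive streak list, so their calls are counted in both. Krt8 and Krt18 were called higher in each of the 4 clones, and Ascl2 was called in none. The summed signal of the tested trophoblast markers ran from 4772 to 15544 over the 4 clones and lay between 2240 and 2948 in Control_R.

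Fibroblast feeder markers, 10 of 15 tested, were called higher for 1 gene in Bub1b_R, 4 in Chek1_R, 7 in Ppm1g_R, 3 in Ppp2r1b_R and 0 in Control_R, where 0 were also higher and 1 was lower by limma at an unadjusted p under 0.05. Thy1 was called lower in Chek1_R at -0.86 and in Ppm1g_R at -0.65. Their summed signal was 4360 to 5163 in Control_R and 4737 to 11612 in the other clones, where it was higher without Dox in Bub1b_R and Ppm1g_R and lower in Chek1_R and Ppp2r1b_R. Lox was at the floor on every array of Bub1b_R, Chek1_R, Ppm1g_R and Control_R. Primed epiblast markers gave 2, 1, 2 and 1 of 6 called higher in Bub1b_R, Chek1_R, Ppm1g_R and Ppp2r1b_R, and 0 in Control_R (2 by limma at an unadjusted p under 0.05), while Otx2 was called lower in Chek1_R at -0.88 and in Ppm1g_R at -0.78, with sums of 7735 to 15774 in the 4 clones and 5323 to 6196 in Control_R. Extraembryonic endoderm markers gave 4, 1, 2 and 1 of 7 called higher, and 1 in Control_R, with 1 called lower in Chek1_R, and with sums of 2053 to 3125 in the 4 clones and 2332 to 2541 in Control_R. No member is on any of these lists.

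None of the tested genes of the naive and general pluripotency list was among the members reported here, which do not include every probe that met the rule. Of 17 tested genes of the naive and general pluripotency list, 8 were called lower in Bub1b_R, 5 in Chek1_R, 2 in Ppm1g_R, 12 in Ppp2r1b_R and 2 in Control_R, and the median changes were -0.37, -0.20, -0.11, -0.52 and -0.08. In Chek1_R 2 were called higher, Klf4 at 0.54 and Gbx2 at 0.74, and in Ppm1g_R 1, Gbx2 at 0.41. Of 15 LIF and STAT3 genes, 2, 1, 1, 1 and 1 were called lower in Bub1b_R, Chek1_R, Ppm1g_R, Ppp2r1b_R and Control_R and 2, 2, 1, 3 and 0 higher. The 2-cell-like list had only 2 tested genes, Tcstv1 and Tcstv3. In Bub1b_R, Chek1_R, Ppm1g_R, Ppp2r1b_R and Control_R, 1, 2, 0, 0 and 2 of them were called higher and 0 lower. In Control_R they changed by 1.15 and 1.03.

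Promoters of the members were read from RefSeq tables of the GRCm38.p6 build, 1 per gene. Each runs from 250 bases before to 50 after a transcript start, the first listed for the gene. That start can lie inside the gene: the Rab3il1 gene begins at 10001669 on the plus strand, well before its window below. Of the 124 genes 96 matched by symbol, 21 by synonym and 7 not at all, and 84 had a promoter in the table. The promoters of 4 of the genes that fell most are shown first, since Rab3il1, Cplx1, Acss1 and Smc1b are described above in full. Capitals mark, on either strand, any of 8 motifs searched: AAGGTCA (nuclear receptor half-site), ATTTGCAT (the octamer read by POU proteins), TTCNNNGAA (STAT), CACGTG (E-box), GGGCGG (GC box), TGACGTCA (CRE), TATAAA (letters of the TATA box) and the CCAAT box, whose name is its letters. The Rab3il1 promoter lies at chr19:10017944-10018243 (plus strand), that of Cplx1 at chr5:108549978-108550277 (minus strand), that of Acss1 at chr2:150668191-150668490 (minus strand) and that of Smc1b at chr15:85131908-85132207 (minus strand).
Rab3il1: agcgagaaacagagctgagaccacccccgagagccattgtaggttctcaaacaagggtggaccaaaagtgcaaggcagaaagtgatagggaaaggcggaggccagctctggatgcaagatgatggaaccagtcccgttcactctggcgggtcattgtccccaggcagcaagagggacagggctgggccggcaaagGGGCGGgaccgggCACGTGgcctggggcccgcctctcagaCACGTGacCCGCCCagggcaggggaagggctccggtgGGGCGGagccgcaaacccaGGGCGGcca
Cplx1: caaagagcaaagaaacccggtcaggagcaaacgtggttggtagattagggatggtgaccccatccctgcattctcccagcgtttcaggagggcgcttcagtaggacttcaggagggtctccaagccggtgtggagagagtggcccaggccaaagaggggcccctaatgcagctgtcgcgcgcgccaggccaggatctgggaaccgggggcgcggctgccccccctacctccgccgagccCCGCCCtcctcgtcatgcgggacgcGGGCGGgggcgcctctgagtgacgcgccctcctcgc
Acss1: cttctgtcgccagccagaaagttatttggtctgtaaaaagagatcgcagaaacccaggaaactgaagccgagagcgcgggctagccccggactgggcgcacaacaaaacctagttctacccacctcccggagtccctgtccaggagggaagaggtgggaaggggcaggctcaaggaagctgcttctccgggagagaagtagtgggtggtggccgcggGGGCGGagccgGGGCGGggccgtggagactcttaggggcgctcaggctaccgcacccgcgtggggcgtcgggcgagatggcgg
Smc1b: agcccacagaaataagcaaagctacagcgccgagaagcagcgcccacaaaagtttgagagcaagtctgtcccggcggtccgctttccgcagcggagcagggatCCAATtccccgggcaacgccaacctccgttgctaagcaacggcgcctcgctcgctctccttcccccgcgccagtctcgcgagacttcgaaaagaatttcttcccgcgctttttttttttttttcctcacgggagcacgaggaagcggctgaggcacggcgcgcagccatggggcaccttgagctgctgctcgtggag

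The Rab3il1 window holds the E-box at -42 and -15 and the GC box at -55, -7, 23 and 42. Positions are counted from the first base of the transcript used, which for Rab3il1 starts inside the gene. In Cplx1 the GC box starts at -11 and 15, and in Acss1 at -33 and -22, while Smc1b holds a CCAAT box at -147 and none of the other letters. Over the 84 member promoters the GC box was present in 57.1%, beside 63.7% of 8413 promoters of tested genes and 35.9% of all 27025 promoters. The CCAAT box was in 44.0% of members and 38.9% of tested genes.

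The octamer was found in 4 of the 84 member promoters (4.76%), beside 1.46% of the tested genes and 1.75% of all promoters. They are shown because these members share a motif the choice did not use: Pipox at chr11:77893823-77894122 (minus strand), Mef2b at chr8:70152511-70152810 (plus strand), Liph at chr16:21995493-21995792 (minus strand) and Kcnab2, a potassium channel subunit, at chr4:152477500-152477799 (minus strand).
Pipox: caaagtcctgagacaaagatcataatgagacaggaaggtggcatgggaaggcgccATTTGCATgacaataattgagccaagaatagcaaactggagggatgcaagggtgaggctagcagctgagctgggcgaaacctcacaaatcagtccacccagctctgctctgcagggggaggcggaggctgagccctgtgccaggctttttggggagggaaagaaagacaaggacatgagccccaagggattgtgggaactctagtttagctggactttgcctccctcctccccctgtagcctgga
Mef2b: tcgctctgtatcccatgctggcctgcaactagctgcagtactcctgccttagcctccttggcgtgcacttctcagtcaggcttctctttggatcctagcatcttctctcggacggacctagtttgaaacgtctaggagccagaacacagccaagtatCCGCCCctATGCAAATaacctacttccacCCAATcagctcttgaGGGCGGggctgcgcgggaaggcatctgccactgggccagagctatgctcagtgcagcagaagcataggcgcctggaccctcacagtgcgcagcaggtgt
Liph: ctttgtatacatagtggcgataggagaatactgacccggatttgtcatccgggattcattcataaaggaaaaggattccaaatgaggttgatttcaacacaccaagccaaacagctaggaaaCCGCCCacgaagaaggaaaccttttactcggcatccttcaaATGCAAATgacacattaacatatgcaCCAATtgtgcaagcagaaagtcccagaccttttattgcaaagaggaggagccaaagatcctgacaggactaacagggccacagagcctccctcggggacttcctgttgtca
Kcnab2: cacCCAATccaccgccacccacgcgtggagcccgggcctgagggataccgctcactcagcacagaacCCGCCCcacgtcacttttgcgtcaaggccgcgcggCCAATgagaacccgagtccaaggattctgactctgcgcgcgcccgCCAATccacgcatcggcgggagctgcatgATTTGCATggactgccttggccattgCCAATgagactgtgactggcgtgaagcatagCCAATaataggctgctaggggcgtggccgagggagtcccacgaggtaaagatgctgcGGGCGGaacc

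The octamer starts at -195 in Pipox, -85 in Mef2b, -87 in Liph and -74 in Kcnab2, counted from the start used. For Liph that start lies inside the gene, which reaches to 21995658 on the minus strand. Its octamer is therefore not shown to lie upstream of the gene. Kcnab2 read 5.89 to 7.20 on the 12 arrays with Dox and 5.00 to 6.18 without. The nuclear receptor half-site was in 7 of the 84 (8.33%), beside 3.22% of tested genes and 4.66% of all promoters, namely in Aldh3b1, Slc11a1, Fbxo27, Ela1, Gm128, Ckmt1 and Slc5a11. The 3 in which it lies nearest the start are Aldh3b1 at chr19:3929729-3930028 (minus strand), Slc5a11, a sodium-coupled inositol transporter, at chr7:123214616-123214915 (plus strand), and Ela1, a pancreatic elastase (now Cela1), at chr15:100687871-100688170 (minus strand).
Aldh3b1: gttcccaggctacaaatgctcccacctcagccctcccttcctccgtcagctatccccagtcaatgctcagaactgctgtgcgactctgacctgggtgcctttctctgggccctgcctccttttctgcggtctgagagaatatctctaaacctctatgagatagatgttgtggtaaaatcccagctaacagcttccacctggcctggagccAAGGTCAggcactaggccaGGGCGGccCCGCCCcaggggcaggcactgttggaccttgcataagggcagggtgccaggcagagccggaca
Slc5a11: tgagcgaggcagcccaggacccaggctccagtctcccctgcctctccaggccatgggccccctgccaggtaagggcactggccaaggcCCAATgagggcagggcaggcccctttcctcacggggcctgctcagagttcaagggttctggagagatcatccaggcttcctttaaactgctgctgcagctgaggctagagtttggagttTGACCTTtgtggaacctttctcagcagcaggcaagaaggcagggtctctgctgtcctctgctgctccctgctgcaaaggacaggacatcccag
Ela1: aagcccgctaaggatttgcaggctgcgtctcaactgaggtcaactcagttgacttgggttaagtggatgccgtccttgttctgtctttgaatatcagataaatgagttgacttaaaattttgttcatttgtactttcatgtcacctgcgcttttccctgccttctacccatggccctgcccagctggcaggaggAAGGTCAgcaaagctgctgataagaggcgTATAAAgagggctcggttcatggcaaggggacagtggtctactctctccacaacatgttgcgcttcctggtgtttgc

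The half-site begins at -40, -43 and -56 in these 3, counted from the start used, which for Aldh3b1 and Slc5a11 lies inside the gene. With Dox, Aldh3b1 ran from 6.67 to 7.56 on the 12 arrays, and without it from 5.70 to 6.67. Other letters were rarer among the members than among tested genes: the E-box was in 3.57% against 10.0%, the STAT letters in 3.57% against 6.67% and the CRE in 1.19% against 3.10%, while the TATA box was in 8.33% against 7.92%. These shares rest on 1 to 7 promoters each, and a match is a run of letters, not a site shown to be bound.

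By position, 17 of the 117 genes with a RefSeq entry lay on chromosome 7 (14.5%), beside 8.3% of 10642 tested genes, and 13 on chromosome 11 (11.1% beside 8.6%). Chromosome X held 0 of the 117, beside 357 tested genes (3.4%). The chromosome 7 members included Nlrp14, Tnnt1, Calca (calcitonin and its related peptide), Nupr1, Gmfg, Fxyd5 and Capn5, a calpain. No test was made of these shares.

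Whether a fall chosen on 3 clones also appeared in the other one was asked by leaving each clone out in turn. These counts stand beside the 6.56%, 8.64%, 5.51% and 5.86% of all tested probes called lower in Bub1b_R, Chek1_R, Ppm1g_R and Ppp2r1b_R. Of 162 probes chosen on the other 3 clones, 128 (79.0%) were called lower in Bub1b_R and 0 higher (0 by limma at an unadjusted p under 0.05). Of 165 chosen without Chek1_R, 129 (78.2%) were called lower there and 4 higher. The shares were smaller for the phosphatase clones, 125 of 279 (44.8%) in Ppm1g_R, with 2 called higher, and 123 of 313 (39.3%) in Ppp2r1b_R, with 1 called higher. Whichever of the 4 clones is left out, the chosen probes that reach the limit there are the same 132 members. The 4 counts called lower are therefore not separate results, and the shares differ with the number chosen. Median changes in the clone left out were -0.72 in Bub1b_R, -0.81 in Chek1_R, -0.37 in Ppm1g_R and -0.33 in Ppp2r1b_R, beside 0 for all tested probes. The count in Ppp2r1b_R was 28 of 313 with the methods' t-test, 69 of 313 with that clone's arrays fitted alone and 76 of 270 with median scaling, where 1.14%, 2.61% and 2.55% of all tested probes were called lower. That in Ppm1g_R was 75 of 279 with the t-test, beside 2.55% of all tested probes.

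**Figure D3:**
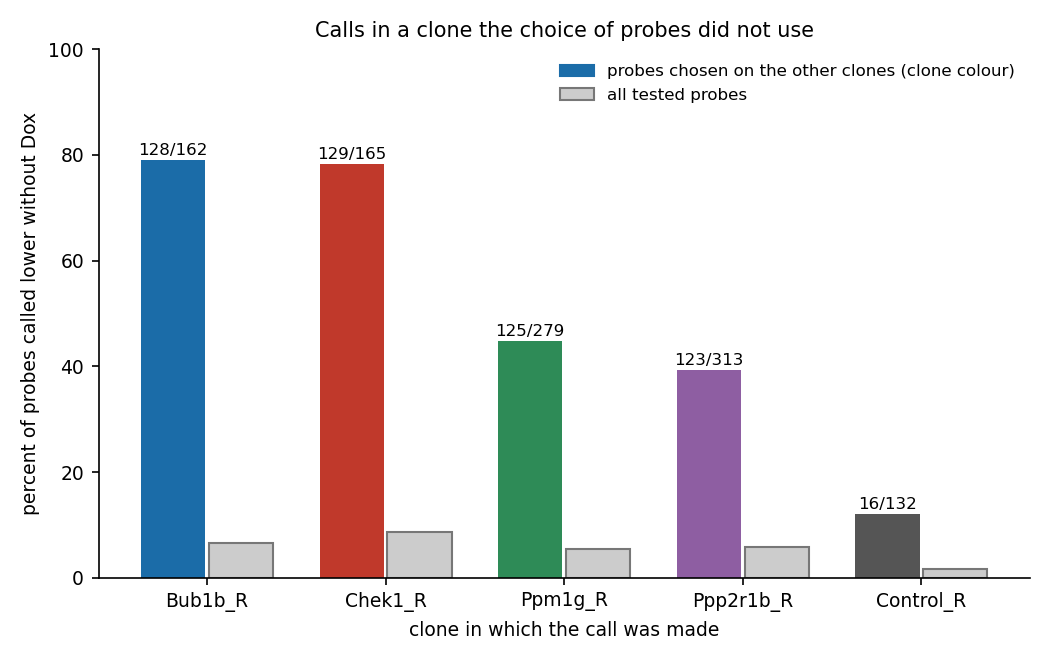
Percent of probes called lower without Dox (limma adjusted p under 0.05 and at least 0.4 log2) in each clone, for probes chosen on the other named clones, all 4 of them for Control_R (coloured bars, counts above) and for all 15151 tested probes (grey bars). The chosen probes were called in 79.0% in Bub1b_R and 12.1% in Control_R, each beside a lower grey bar.

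Control_R went through the same Dox withdrawal and gives a measurement of these genes that the choice did not use. In Control_R 1.61% of all tested probes were called lower and 2.31% higher. Of the 132 member probes 16 (12.1%) were called lower, 0 were called higher (also 0 by limma at an unadjusted p under 0.05, and 0 by the methods' t-test), and 26 were lower at an adjusted p under 0.05 whatever their size. By sign 119 were lower, with a median change of -0.21 beside 0 for all tested probes, and 24 reached the limit of -0.4. The 95% interval of the change included 0 for 80 of the 132. In 129 probes the fall in Control_R was smaller than in each of the 4 clones, although the choice itself favours large falls in those clones. The called count rests on the scale and the test, as it was 2 with median scaling in place of quantiles, 3 with the methods' t-test and 10 with the Control_R arrays fitted alone.

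The largest change in Control_R was that of Cyp4f39, which went from 7.79, 7.95 and 7.97 with Dox to 7.03, 7.01 and 7.05 without, a change of -0.88 ± 0.18 (SE; limma adjusted p = 0.00316). Its falls in the other clones are limited by the floor, reached without Dox on arrays of Bub1b_R, Chek1_R and Ppp2r1b_R. Rab3il1 changed by -0.78 ± 0.10 (adjusted p = 4.17e-05) and Cd2 by -0.77 ± 0.16 (adjusted p = 0.00384). Cd2 read 7.60, 7.50 and 7.83 with Dox and 6.71, 7.04 and 6.87 without.

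Acss1 had the smallest adjusted p of the members in Control_R. It moved from 11.77, 11.92 and 11.74 to 11.10, 11.13 and 11.17, a change of -0.68 ± 0.05 (limma adjusted p = 3.43e-09), with no overlap. Pdzk1, a scaffold for membrane transporters, changed by -0.53 (adjusted p = 1.54e-05) and the brighter Cbr3 probe by -0.51 (adjusted p = 8.18e-06). Also called were 4930424G05Rik (Patl2, an RNA-binding protein of oocytes) at -0.55, the brighter Mef2b probe at -0.51, the dimmer probe of Plxdc1 at -0.50, and 1300013J15Rik (Slc47a1, an organic cation exporter) and 1190002H23Rik (Rgcc, a cell cycle regulator) at -0.46 each. The remaining calls were Nupr1 at -0.44 and Aldh3a1, Gch1, the brighter Dnaic1 probe and the brighter Pipox probe at -0.42 each. The other member probe of Cbr3 (-0.28), Mef2b (-0.29), Plxdc1 (-0.36), Dnaic1 (-0.31) and Pipox (-0.26) was not called (adjusted p between 0.101 and 0.34).

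Several of the genes that fell furthest in the 4 clones did not reach the limit in Control_R. Cplx1 changed by -0.34 (95% interval -0.54 to -0.13, adjusted p = 0.0316), Igsf21, an adhesion protein of the immunoglobulin family, by -0.28 (adjusted p = 0.196) and Vwf by -0.33 (adjusted p = 0.0783). Smc1b changed by -0.06 (95% interval -0.22 to 0.09, adjusted p = 0.775). LOC100045403 changed by -0.05 (-0.31 to 0.20), with arrays at 9.04, 8.95 and 8.90 with Dox and 9.02, 8.87 and 8.86 without. Piwil2, at -0.37, passed the adjusted p (0.00508) but not the limit on size.

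The changes nearest 0 included those of Rell2, 1 probe of Itgae, Tekt1, Galnt9 (a glycosyltransferase) and Fxyd5 (a sodium pump regulator), between -0.02 and 0. Rell2 was at the floor on all 6 Control_R arrays, so its change there cannot be read. The other 131 probes were detected on all 6. Itgae, Tekt1, Galnt9 and Fxyd5 fell by means of 0.59 to 0.89 in the 4 clones. Calca had the highest change in Control_R, 0.38 (adjusted p = 0.28), from 6.91, 6.79 and 6.83 with Dox to 7.26, 7.35 and 7.07 without.

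**Figure D4:**
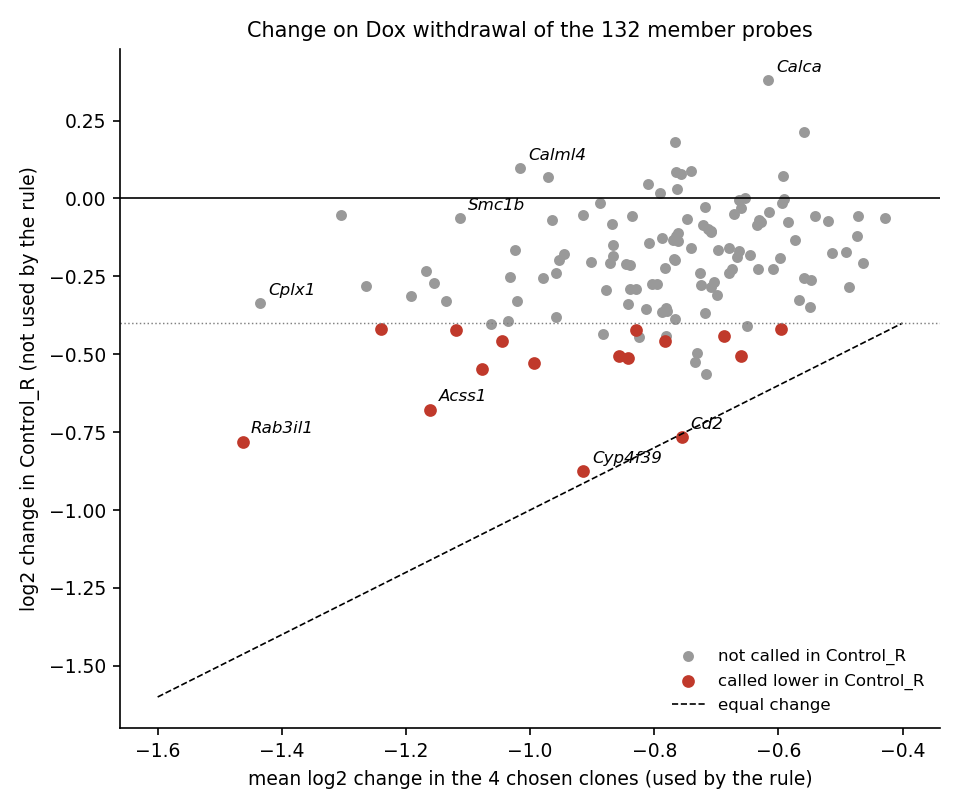
Change in Control_R (vertical axis, log2, not used by the choice) against the mean change in the 4 named clones (horizontal axis, log2, used by it) for the 132 member probes, with the 16 called lower in Control_R in red, equal change dashed and the limit of -0.4 dotted. Cyp4f39 and Cd2, whose values without Dox reach the floor in some of the named clones, lie on the dashed line, and the other points lie above it.

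Levels in Control_R also stood apart before Dox was withdrawn. The median level of the member probes with Dox was 8.26 in Control_R and 7.22 to 7.57 in the 4 clones, beside 7.48 to 7.49 for all tested probes in every clone. Without Dox it was 8.07 in Control_R and 6.51 to 6.69 in the others. With Dox 119 of the 132 probes (90.2%) were higher in Control_R than in Bub1b_R, where 40.4% of all tested probes were, and these 2 clones share a signal set. Across the sets the counts with Dox were 110 for Chek1_R, 112 for Ppm1g_R and 120 for Ppp2r1b_R, with 42.6% to 44.5% of all tested probes. In 97 probes Control_R with Dox was above all 4 clones with Dox. The median difference, Control_R minus clone, was 0.57 for Bub1b_R with Dox and 1.09 without. Each line is taken as 1 clone, and the Control_R arrays come from an earlier deposit. So these levels cannot tell apart a difference between clones, between deposits or batches of arrays, and an effect of the shRNA with partial rescue.

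**Figure D5:**
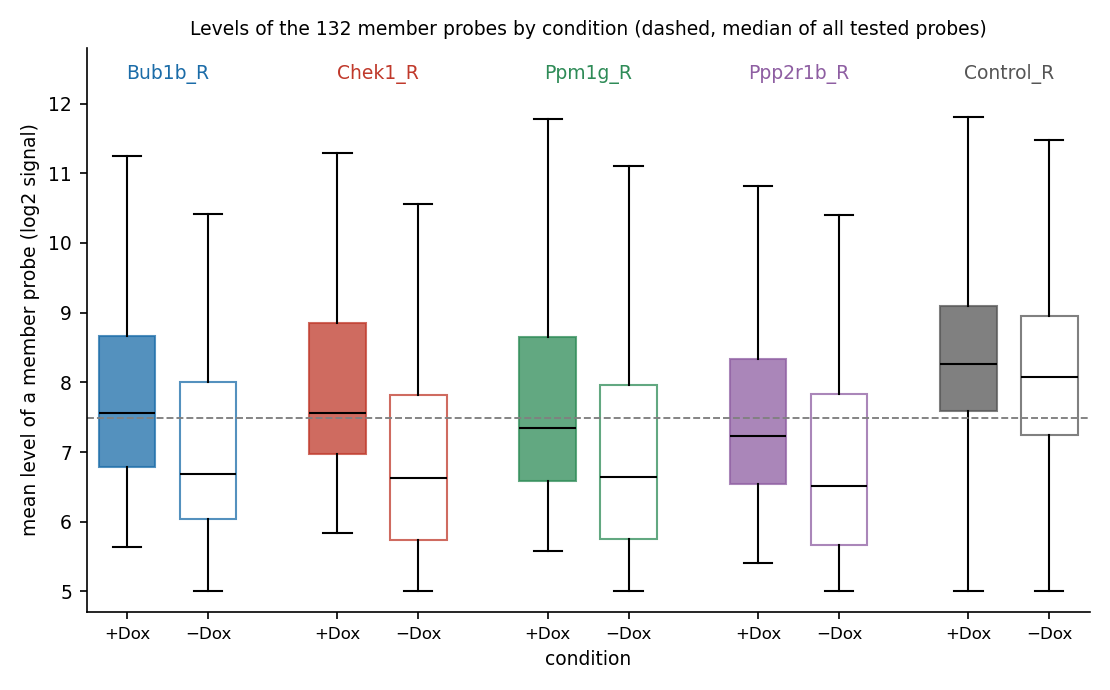
Mean log2 level of the 132 member probes in each condition (box, quartiles with the median; whiskers, lowest and highest probe; coloured with Dox, white without), with the median of all tested probes dashed. The Control_R boxes have medians of 8.26 and 8.07, above the medians of 7.22 to 7.57 with Dox and 6.51 to 6.69 without in the 4 named clones.

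Single genes showed the same order. Gdf15 with Dox read 6.58, 6.81 and 6.97 in Bub1b_R and 8.52, 8.57 and 8.63 in Control_R, and without Dox 5.85, 5.90 and 5.71 against 8.31, 8.32 and 8.33. Igsf21 with Dox read 7.24, 7.18 and 6.99 in Bub1b_R and 8.45, 8.52 and 8.71 in Control_R. Calml4, a calmodulin-like protein, was an exception, at 9.72, 9.75 and 9.86 with Dox in Ppm1g_R against 8.83, 8.78 and 8.68 in Control_R. Aass went the other way as well, at 6.10, 6.10 and 5.93 with Dox in Control_R, below each array with Dox of Chek1_R, Ppm1g_R and Ppp2r1b_R.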

How the data were processed

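RNA of 30 samples was hybridized to Illumina mouse BeadChip arrays, 3 per condition in 10 conditions. The authors deposited for each array a background-subtracted, non-normalized intensity and a detection p-value of every probe. Spreadsheet dates stood in place of 60 detection p-values on 2 arrays (46 without Dox in Ppm1g_R replicate 2, 14 in Bub1b_R replicate 2); 34 were converted back and 26 taken from the probe nearest in signal. No per-sample column was left unmapped.

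Intensities were floored at 32, log2 transformed and quantile-normalized over the 30 arrays, and probes with a detection p-value under 0.05 on 3 or more arrays were kept. Changes are means without minus with Dox. All 10 conditions were fitted in limma 3.58.1 (R 4.3.3; 20 residual and 1.32 prior degrees of freedom) with Benjamini-Hochberg adjustment over all tested probes, after testing on simulated data. The number of arrays limits the precision. The methods' t-test is Student's test per probe. Alternatives were another floor, normalization, filter, size limit, sample set or test.

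The members and gene lists were chosen with earlier results of these data known. Names follow a rule: the largest falls, every call in Control_R, the changes there nearest 0, the widest ranges between clones, the edge of the choice, list members and genes with several probes. Other genes named by role were picked after their values were seen. A further 2 probes that met the rule are not reported here. A bound ("at least") sets the mean with Dox against the lowest detected signal or the probe's own, whichever was higher.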

Additional observations from a re-analysis of the deposited data

Results flagged for a closer look

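Calml4 and the brighter probe of Zap70 moved one way on every pair of arrays in the 4 clones Bub1b_R, Chek1_R, Ppm1g_R and Ppp2r1b_R and the other way on every pair in Control_R; the difference itself was not tested. Calml4 changed by -0.89, -1.53, -0.86 and -0.78 in Bub1b_R, Chek1_R, Ppm1g_R and Ppp2r1b_R and by 0.10 in Control_R (95% interval -0.11 to 0.31, limma adjusted p = 0.714), where its arrays read 8.83, 8.78 and 8.68 with Dox and 8.91, 8.83 and 8.83 without. Zap70 changed by -0.71, -1.15, -0.52 and -0.68 in the 4 clones and by 0.18 in Control_R (95% interval -0.10 to 0.46, adjusted p = 0.516), from 8.19, 8.31 and 8.13 to 8.43, 8.38 and 8.36. Its dimmer probe, also a member, changed by -0.13 in Control_R.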

How the results depend on the processing

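No direction reversed under any alternative run, where directions were compared. These were the median change of the members in Control_R, the calls of named members there and their mean changes in the 4 clones. The last are negative by the choice. For a named member called in neither run, the sign of its change in Control_R was not compared. The number of member probes was 43 at a limit of 1.5-fold in place of 0.4, and 90 to 169 under the other alternatives (169 with the floor at 16, 131 of them shared with the 132, and 90 with the floor at 64, 89 shared). Leaving out 1 array at a time gave 127 to 140 probes. The count called lower in Control_R, 16 of 132, was 2 with median scaling, 10 with only that clone's arrays, 3 with the methods' t-test, 4 at 1.5-fold and 26 with no limit on size, and 13 to 19 without any 1 array. Of all tested probes, 0.119% were called lower there with median scaling, 0.488% with only that clone's arrays, 0.152% with the t-test, 0.673% at 1.5-fold and 4.36% with no limit. None was called higher under any of them (0 without any 1 array), and the median change ran from -0.23 to -0.18 over the arrays left out. In the clone left out of the choice, the count for Ppm1g_R (125 of 279) was 75 with the t-test and 81 at 1.5-fold, beside 2.55% and 2.48% of all tested probes called lower. That for Ppp2r1b_R (123 of 313) was 76 of 270 with median scaling, 69 with only that clone's arrays, 28 with the t-test and 73 at 1.5-fold, beside 2.55%, 2.61%, 1.14% and 2.51%. The causes of these moves were not tested. Without any 1 array the counts were 123 to 133 for Bub1b_R, 122 to 137 for Chek1_R, 119 to 131 for Ppm1g_R and 117 to 128 for Ppp2r1b_R. Where leaving out an array left 2 in a condition, the fit pooled the spread over all conditions.

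Replicate numbers did not pair the samples: of 15 same-numbered pairs 1 correlated above 0.1, and 6 arrays correlated best with their own number. With a replicate block the counts were 17 in Control_R and 128, 128, 124 and 121 in Bub1b_R, Chek1_R, Ppm1g_R and Ppp2r1b_R. After seeing the data, 2 alternatives were added: choosing without the Chek1_R arrays gave 17 of 165 called lower in Control_R, and 1 probe per gene gave 15 of 124. Among the single calls in Control_R, that of 4930424G05Rik was lost in 9 settings, that of Pipox in 8 and that of Dnaic1 in 5. Members at or near the floor, such as Rab3il1, Apoa2 and Rell2, have falls limited by it.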
